A study of Homo sapiens with 15 samples.

Results

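Chromatin loops captured with the histone mark H3K27ac in LNCaP cells were compared between 30 minutes of dihydrotestosterone (DHT) and vehicle. LNCaP is an established line of androgen-sensitive prostate cancer cells. It was treated with DHT over a time course, with HiChIP for H3K27ac and for H3K4me3 at each time, to follow how promoter contacts change with androgen. All anchor pairs of the H3K27ac loop set were taken, each once, which gave 296326 of the 505995 different anchor pairs in the tables and 4 of the 15 samples. The 0 m group was LNCaP kept in phenol-red-free medium with charcoal-stripped serum, which holds little steroid, and given ethanol vehicle. The 30 m group was LNCaP kept in the same medium and given 10 nM DHT for 30 minutes. Both groups have 2 labelled replicates, but each loop has 1 value per time point, and the sources used here do not say whether both replicates entered it. There is therefore no replicate check of any difference below.

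HiChIP ligates the ends of DNA that lie close together in the nucleus and then pulls down the fragments that carry a chosen chromatin protein or histone mark. A loop is a pair of places in the genome joined by more such read pairs than their distance would give, and its contact therefore depends on the folding of the DNA and on the amount of the mark at the anchors. H3K27ac marks active promoters and enhancers, and it is laid down by acetyltransferases that transcription factors recruit. DHT is the most potent natural androgen, and in luminal prostate cells it acts on transcription mostly through enhancers that FOXA1 keeps open.

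The sequences of 5 promoters are shown because the change at 30 m followed the base composition of the anchors. They are the 150 bases upstream of the gene start on GRCh37, written 5′ to 3′ on the strand of the gene, with CG pairs in capitals. The gene start is the most upstream end of the gene in Gencode, which need not be the start in use in LNCaP. In the deposited values CTSD and ULK1 had the largest rises among genes, BCHE and NIPSNAP3B were among the largest falls, and FKBP5 rose. They lie at chr11:1785804-1785953 (minus strand), chr12:132379017-132379166 (plus), chr3:165555251-165555400 (minus), chr9:107526260-107526409 (plus) and chr6:35696361-35696510 (minus).
CTSD: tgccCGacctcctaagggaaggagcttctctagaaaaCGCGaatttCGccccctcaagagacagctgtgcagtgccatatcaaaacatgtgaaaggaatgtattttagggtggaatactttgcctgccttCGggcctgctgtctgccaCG
ULK1: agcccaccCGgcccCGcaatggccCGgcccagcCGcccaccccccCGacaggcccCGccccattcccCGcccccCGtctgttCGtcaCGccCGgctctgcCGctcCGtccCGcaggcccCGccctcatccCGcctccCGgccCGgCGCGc
BCHE: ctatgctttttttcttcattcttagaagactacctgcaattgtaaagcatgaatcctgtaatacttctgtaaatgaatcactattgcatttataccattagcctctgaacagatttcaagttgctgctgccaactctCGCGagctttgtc
NIPSNAP3B: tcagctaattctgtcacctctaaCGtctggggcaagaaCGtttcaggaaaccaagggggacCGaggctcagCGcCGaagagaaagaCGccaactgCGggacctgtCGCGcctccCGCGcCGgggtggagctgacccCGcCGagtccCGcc
FKBP5: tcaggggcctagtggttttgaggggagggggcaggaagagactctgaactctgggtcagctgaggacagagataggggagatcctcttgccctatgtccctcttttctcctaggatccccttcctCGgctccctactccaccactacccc
The upstream sequence of ULK1 held 20 CG pairs and was 82.0% G or C, and that of BCHE held 2 and was 37.3% G or C. NIPSNAP3B had 15 CG pairs, CTSD 6 and FKBP5 1. Over the upstream sequences of the 8261 genes with enough read pairs the median was 13 CG pairs and 65.3% GC. CTSD (51.3% GC) and FKBP5, which rose, thus had few CG pairs upstream of these annotated starts. NIPSNAP3B, which fell, had a number near the median. Other starts of these genes were not examined.

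Promoter loops were present at the markers of the labelled cell type. All 12 luminal epithelial markers had loops with read pairs, with a summed contact of 979 at 0 m and 959 at 30 m when each loop is counted once. FOXA1, the pioneer factor of luminal cells, was the most abundant of them, with a contact of 228 at 0 m and 192 at 30 m. Of 20 markers of basal, neuroendocrine, immune, endothelial, stromal and other cells, 16 had no loop in the set, among them TP63, KRT5, PTPRC and ALB, so no read pair could be counted for them. Of all 20162 coding promoters, 14098 had a loop. The other 4 summed to 48.5 at 0 m and 50.4 at 30 m, with collagen COL1A1 the highest at 22.0 and 28.6. The summed contact of either list was thus close at both times as deposited. Of the luminal markers 10 had at least 100 read pairs, and their median change was 0.12 (−0.18 adjusted), below the 0.35 (0.13 adjusted) of all genes. For loops of at least 20 kb, where 7 markers had enough read pairs, the median was −0.45.

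Contact is the number of read pairs of a loop after the TMM scaling of the authors, and 1 read pair was worth 0.294 at 0 m and 0.180 at 30 m. Dividing by these gave 1989545 read pairs at 0 m and 3426705 at 30 m over the H3K27ac loops. The median loop held 4 read pairs at 0 m and 5 at 30 m, and 5.81% and 3.00% of loops held none. Changes are log2 ratios of contact, and the ranges given with them are exact 95% intervals of the ratio of read pairs, which cover counting error only.

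The 30 m library stood apart from the others in base composition. The mean GC content of the 5 kb bins its read pairs joined was 47.2%, against 45.8% at 0 m and 46.1%, 46.2% and 46.2% after 4 h, 16 h and 72 h of DHT. The share of read pairs spanning 15 kb or less was 49.97% at 30 m and 44.3% at 0 m, and the later times lay between 49.3% and 54.5%. The 0 m library thus stood apart in length and the 30 m library in GC. For this reason the changes of genes, gene lists, anchor classes and single loops below are mostly also given after adjustment, that is, after dividing the contact at 30 m by the overall 30 m to 0 m ratio of loops of the same length and GC class. The adjustment sets the change over all loops to 0. A difference between libraries and a change of the cells that follows base composition cannot be told apart here, and the adjustment removes both.

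Promoter contact was higher at 30 m for many more genes than it was lower. CTSD, the lysosomal protease cathepsin D, FKBP5, a co-chaperone of steroid receptors, EGR1, an immediate early transcription factor, and the replication helicase gene MCM2 rose. BCHE, which encodes butyrylcholinesterase, FOLH1, which encodes the prostate-specific membrane antigen, and UGT2B15, which encodes an enzyme that conjugates androgens, fell. The contacts of a gene are the sum over loops with an anchor within 2.5 kb of its start. A gene was called where this sum moved at least 1.5-fold and its interval left out 0. The start is the most upstream end of the gene in Gencode, whereas the study used the start of the most expressed transcript. Loops that only reach a start of the gene more than 2.5 kb away from it are not counted. Of 14098 protein-coding genes with a loop, 8261 had at least 100 read pairs in both libraries together. In all, 2053 (24.9%) were called higher and 157 (1.9%) lower, and the median change was 0.35. After adjustment the median was 0.13, 688 genes (8.33%) were called higher and 235 (2.84%) lower. Of these, 539 genes were called higher and 89 lower both ways. The median GC content of the loops was 51.1% for the genes called higher, 42.1% for those called lower and 48.6% for all 8261. Genes called lower also had longer loops, with 41.0% of their 0 m read pairs in loops of 100 kb or more for the median gene, against 23.4% for those called higher. When both libraries were scaled to the same total, 1502 genes (18.2%) were higher and 212 (2.57%) lower.

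The androgen-induced genes did not stand above the other genes at 30 m. Of 40 such genes, 27 had enough read pairs, 5 were called higher (18.5%) and 2 lower (7.41%), beside 24.9% and 1.9% of all genes, and their median was 0.26 (0.04 adjusted), beside 0.35 (0.13 adjusted) over all genes. With equal library totals the shares were 18.5% and 7.41%, beside 18.2% and 2.57% of all genes, and after adjustment 7.41% and 3.70%, beside 8.33% and 2.84%. FKBP5 rose from a contact of 74.0 (252 read pairs) to 146 (810 read pairs), a change of 0.98 (0.77 to 1.19; adjusted 0.59). ODC1, the first enzyme of polyamine synthesis, rose from 50.2 to 94.3, a change of 0.91 (0.66 to 1.17; adjusted 0.59). These were the 2 genes of the list that were called higher also after adjustment. KLK3, which encodes prostate-specific antigen, rose from 30.6 to 50.2 in 1 loop, a change of 0.72 (0.39 to 1.06; adjusted 0.19). Its neighbour KLK15, another kallikrein, rose from 40.8 to 70.9 by 0.80 (adjusted 0.42). Both kallikrein genes thus lost their call in the adjusted values.

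Both androgen-induced genes called lower, FOLH1 and STEAP1, had loops of low GC content, at 38.0% and 39.1%. FOLH1 fell from 207 (703 read pairs) to 126 (699 read pairs), a change of −0.72 (−0.87 to −0.56; adjusted −0.27). STEAP1, a membrane protein of the prostate, fell from 19.1 to 9.90, a change of −0.95 (−1.49 to −0.41; adjusted −0.17). Neither was called after adjustment. UAP1, which makes UDP-N-acetylglucosamine, behaved the other way: its contact was 67.3 at 0 m and 47.3 at 30 m, a change of −0.51 that was not called as deposited and was called lower at −0.75 after adjustment. SPDEF, an ETS factor of luminal cells, had 94.6 and 92.5 (−0.03; adjusted −0.44). ACP3, prostatic acid phosphatase, had 92.6 and 74.9 (−0.31; adjusted −0.06). Of 10 androgen-repressed genes, 2 had enough read pairs, with a median of −0.42 (0.12 adjusted). UGT2B15, which was called lower, fell from 70.8 to 39.4, a change of −0.85 (−1.12 to −0.58; adjusted −0.22), and was not called after adjustment.

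**Figure D1:**
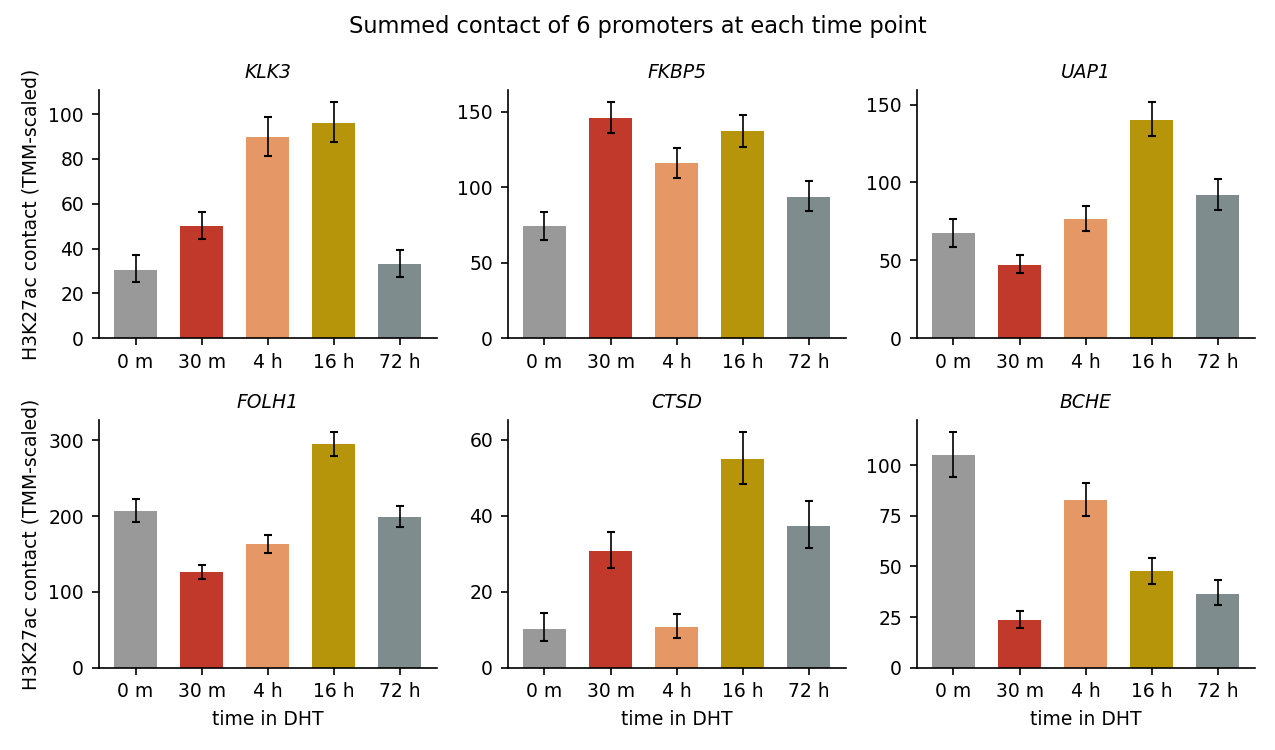
Summed H3K27ac contact (TMM-scaled) of the promoters of KLK3, FKBP5, UAP1, FOLH1, CTSD and BCHE over the DHT time course, from 0 m to 72 h. Bars are the 1 deposited value per time point and error bars exact 95% Poisson intervals of the read pairs. They sum 1, 23, 7, 46, 2 and 48 loops in this order of genes. FKBP5 was highest at 30 m (146), with an interval that overlaps that of 16 h. KLK3 was highest at 16 h (96.0), with an interval that overlaps that of 4 h, and FOLH1 and UAP1 were lowest at 30 m (126 and 47.3).

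The later time points, which share the 0 m library, placed these genes differently. KLK3, in its 1 loop, went on from 50.2 at 30 m to 89.7 at 4 h and 96.0 at 16 h and was back at 32.9 at 72 h. After its 146 at 30 m, FKBP5 had 115.8, 137 and 93.7 at these 3 later times. The counting intervals of FKBP5 at 30 m (135.9 to 156) and 16 h (127 to 148) overlapped, so these values are not told apart, whereas KLK3 was lower at 30 m (44.5 to 56.5) than at 4 h (81.4 to 98.7). The adjusted changes were 0.59, 0.49 and 0.45 for FKBP5 at 30 m, 4 h and 16 h, and 0.19, 1.24 and 0.83 for KLK3. UAP1 went from 47.3 at 30 m to 76.7, 140 and 91.8. FOLH1 went from 126 to 163, 295 and 199. Both were at their lowest at 30 m and their highest at 16 h. The median change of the 27 androgen-induced genes was 0.26 at 30 m and 0.18, 0.51 and 0.23 after 4 h, 16 h and 72 h, beside 0.35, 0.04, 0.29 and 0.26 over all genes. The adjusted medians were 0.04, 0.05, 0.24 and −0.11, beside 0.13, −0.04, 0.02 and 0.06 over all genes. The list was thus above all genes at 4 h and 16 h and below them at 30 m and 72 h.

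Other steroid targets also had a median below that of all genes as deposited and after adjustment. Of the 15 genes that androgens and glucocorticoids both induce, 9 had enough read pairs, and FKBP5 and MT1X, a metallothionein, were called higher (22.2%, beside 24.9% of all genes; 1 with equal library totals, or 11.1%, beside 18.2%), with a median of 0.33 (0.04 adjusted). After adjustment FKBP5 alone was called higher (11.1%, beside 8.33%), so the order of the shares turned. With length alone adjusted 3 were higher. MT1X rose from 33.8 to 52.2, a change of 0.63 (adjusted 0.42). PER1, a circadian clock repressor, had 67.0 and 90.3 (0.43; adjusted 0.04), and NFKBIA, the inhibitor of NF-kappa-B, had 92.0 and 135 (0.56; adjusted 0.31). Neither passed 1.5-fold.

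Immediate early genes, which respond to many stimuli within minutes, split. Of 32, 20 had enough read pairs, 5 were called higher (25.0%, beside 24.9% of all genes) and 0 lower, with a median of 0.28 (−0.07 adjusted). With equal library totals 4 were higher (20%, beside 18.2%) and 1 lower, and after adjustment 1 (5%, beside 8.33%) and 1. EGR1 rose from 44.7 to 86.9, a change of 0.96 (0.69 to 1.23; adjusted 0.64). ZFP36, which destabilises messenger RNAs, rose from 62.6 to 119, a change of 0.93 (adjusted 0.43). SRF, the serum response factor, rose by 0.80 (adjusted 0.43), the AP-1 subunit gene JUND by 0.70 (adjusted 0.34) and EGR3 by 0.62 (adjusted 0.25). EGR1 alone was called higher after adjustment. MYC, the growth-promoting transcription factor, had a contact of 252 (858 read pairs) at 0 m and 176 (978 read pairs) at 30 m, a change of −0.52 (−0.65 to −0.38). MYC was called lower with equal library totals (−0.60) and after adjustment (−0.61), but not as deposited or with length alone adjusted (−0.36). JUN had 99.9 and 89.8 (−0.15; adjusted −0.18), and the orphan receptor NR4A1 had 31.4 and 28.1 (−0.16; adjusted −0.56), so the immediate early genes did not move as a set.

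Of 14 transcription factors of luminal cells, 11 had enough read pairs, and 2 of them were called higher (18.2%, beside 24.9% of all genes; 1 with equal library totals, or 9.09%, beside 18.2%) and 0 lower, with a median of 0.22 (0.01 adjusted). OVOL1, a zinc finger repressor of epithelial cells, rose from 11.2 to 26.99, a change of 1.27 (0.75 to 1.83; adjusted 0.83). OVOL1 alone was called higher after adjustment (9.09%, beside 8.33% of all genes), so the order of the shares turned. With length alone adjusted 1 was higher and 1 lower, and for loops of at least 20 kb the median was −0.05. GATA2, a zinc finger factor of prostate enhancers, rose from 82.0 to 130, a change of 0.66 (adjusted 0.14). FOXA1 had a change of −0.25 (adjusted −0.39), HOXB13 of 0.22 (adjusted −0.29) and the ETS factor EHF of −0.40 (adjusted −0.49). Of 30 steroid receptor coregulators, 20 had enough read pairs, and 4 of them were called higher (20%, beside 24.9% of all genes) and 0 lower, with a median of 0.34 (0.07 adjusted). With equal library totals 3 were higher (15%, beside 18.2%) and TLE1 lower, and after adjustment 1 was higher (5%, beside 8.33%). The Mediator subunit MED12 rose from 12.3 to 25.6, a change of 1.05 (adjusted 0.71), and was the member called higher after adjustment. SMARCA4, the ATPase of the BAF remodeller, rose by 0.71 (adjusted 0.34), CARM1, an arginine methyltransferase, by 0.67 (adjusted 0.22) and its relative PRMT1 by 0.62 (adjusted 0.25). The SUMO ligase gene PIAS4 had −0.44 and was called lower after adjustment at −0.84.

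Of 15 genes of the loop machinery itself, 13 had enough read pairs, and 3 of them were called higher (23.1%, beside 24.9% of all genes) and 0 lower, with a median of 0.33 (0.20 adjusted), beside 0.35 (0.13 adjusted). With equal library totals 3 were again higher (23.1%, beside 18.2%), and after adjustment 2 (15.4%, beside 8.33%), so the order against all genes turned with the setting. SMC1A, a core subunit of cohesin, rose from 12.9 to 25.6, a change of 0.98 (0.49 to 1.51; adjusted 0.68). STAG1, a cohesin subunit that binds CTCF, rose from 61.4 to 97.2, a change of 0.66 (adjusted 0.69), and MAU2, a partner of NIPBL in loading cohesin, rose from 65.8 to 127, a change of 0.95 (adjusted 0.55). SMC1A and STAG1 were called both ways. CTCF had a change of 0.55 (adjusted 0.25) and RAD21 of −0.37 (−0.96 to 0.22; adjusted 0.00).

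In sterol and fatty acid synthesis, 22 of 28 genes had enough read pairs, 5 were called higher (22.7%, beside 24.9% of all genes) and 0 lower (3, or 13.6%, and 1 with equal library totals, beside 18.2% higher over all genes), and the median was 0.42 (0.18 adjusted). After adjustment 2 were higher (9.09%, beside 8.33%) and 1 lower. NSDHL, a sterol dehydrogenase, rose from 8.23 to 18.4, a change of 1.16 (0.54 to 1.82; adjusted 0.87). ACLY, which makes cytosolic acetyl-CoA, rose by 0.65 (adjusted 0.32) and FDPS, a farnesyl diphosphate synthase, by 0.64 (adjusted 0.36). The mevalonate pathway kinase gene PMVK had −0.58 (adjusted −0.73) and was called lower with equal library totals and after adjustment, but not as deposited or with length alone adjusted (−0.44). CYP51A1, a sterol demethylase, had 0.40 and was called higher after adjustment at 0.62. Of the 22 genes, 19 lay above 0 as deposited and 15 after adjustment, where the medians of all genes (0.35 and 0.13) also lay above 0.

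Cell cycle and replication genes had the highest median of the 12 lists. Of 37 genes, 23 had enough read pairs, 15 were called higher (65.2%, beside 24.9% of all genes; 10 with equal library totals, or 43.5%, beside 18.2%) and 0 lower, and the median was 0.64 (0.39 adjusted). Their loops had a median GC content of 48.6%, the same as over all genes. After adjustment 6 were called higher (26.1%) and 0 lower, beside 8.33% and 2.84% over all genes. MCM2 rose from 22.6 (77 read pairs) to 49.3 (274 read pairs), a change of 1.12 (0.75 to 1.51; adjusted 0.73). MKI67, the gene of the proliferation marker Ki-67, rose from 8.52 to 17.5, a change of 1.03 (0.42 to 1.69; adjusted 0.81). TOP2A, the topoisomerase of dividing cells, rose from 27.03 to 53.4, a change of 0.98 (0.64 to 1.34; adjusted 0.79). The cyclin gene CCNB2 rose by 0.91 (0.27 to 1.60; adjusted 1.18), RRM2, a subunit of ribonucleotide reductase, by 0.87 (adjusted 0.59) and the cyclin gene CCNB1 by 0.67 (adjusted 0.65). These 6 genes were called both ways. The G1 cyclin gene CCND1 rose from 124 to 199, a change of 0.69 (adjusted 0.29), while CCNE2 had 22.0 and 21.1 (−0.07; adjusted −0.28). At the later times the median of these 23 genes was 0.05 at 4 h, 0.21 at 16 h and 0.26 by 72 h (adjusted −0.05, −0.08 and −0.05), all against the same 0 m library, beside 0.04, 0.29 and 0.26 over all genes. The list was thus above all genes at 30 m and near or below them at the later times. The shares of cells in each phase of the cycle were not analysed here.

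The cytosolic ribosomal protein genes, which every growing cell uses, had a median close to that of all genes as deposited and a lower one after adjustment. Of 79, 68 had enough read pairs, 16 were called higher (23.5%) and 0 lower, and the median was 0.33 (0.05 adjusted), beside 0.35 (0.13 adjusted) over all genes. With equal library totals 5 were called higher (7.35%, beside 18.2% of all genes). After adjustment 1 was higher, RPL30 (1.47%, beside 8.33% of all genes), and 2 were lower, RPS16 and RPS19. RPS15 rose most, from 99.9 to 182, a change of 0.86 (adjusted 0.43), and RPL37A had the lowest change, −0.45 (−0.98 to 0.08; adjusted −0.36). The share of genes called higher among them was thus close to the 24.9% of all genes as deposited, and below that of all genes with equal totals and after adjustment.

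Promoters grouped by the nascent RNA classes of the study had medians on both sides of that of all genes. Of the promoters listed as having most nascent RNA at 30 m, 32 had enough read pairs, with 9 called higher (28.1%, beside 24.9% of all genes) and 0 lower and a median of 0.36 (0.16 adjusted). With equal library totals 5 were higher (15.6%, beside 18.2%), and after adjustment 2 were higher (6.25%, beside 8.33%) and 2 lower, so the share turned to below that of all genes. The median was 0.25 (0.04 adjusted) for the 53 promoters listed for 4 h, 0.40 (0.13 adjusted) for the 114 listed for 16 h and 0.39 (0.10 adjusted) for the 77 listed for 72 h. The 64 androgen response promoters of the study had a median of 0.25 (0.10 adjusted), with 11 higher (17.2%) and 1 lower (1.56%), beside 24.9% and 1.9% of all genes. With equal library totals 10 were higher (15.6%, beside 18.2%). After adjustment 6 were higher (9.375%, beside 8.33%) and 1 lower (1.56%, beside 2.84%), so the share called higher turned to above that of all genes. The nascent RNA classes were drawn up by the study from its own experiments and are no independent evidence of direction, whereas the androgen response promoters are those of a public gene set.

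**Figure D2:**
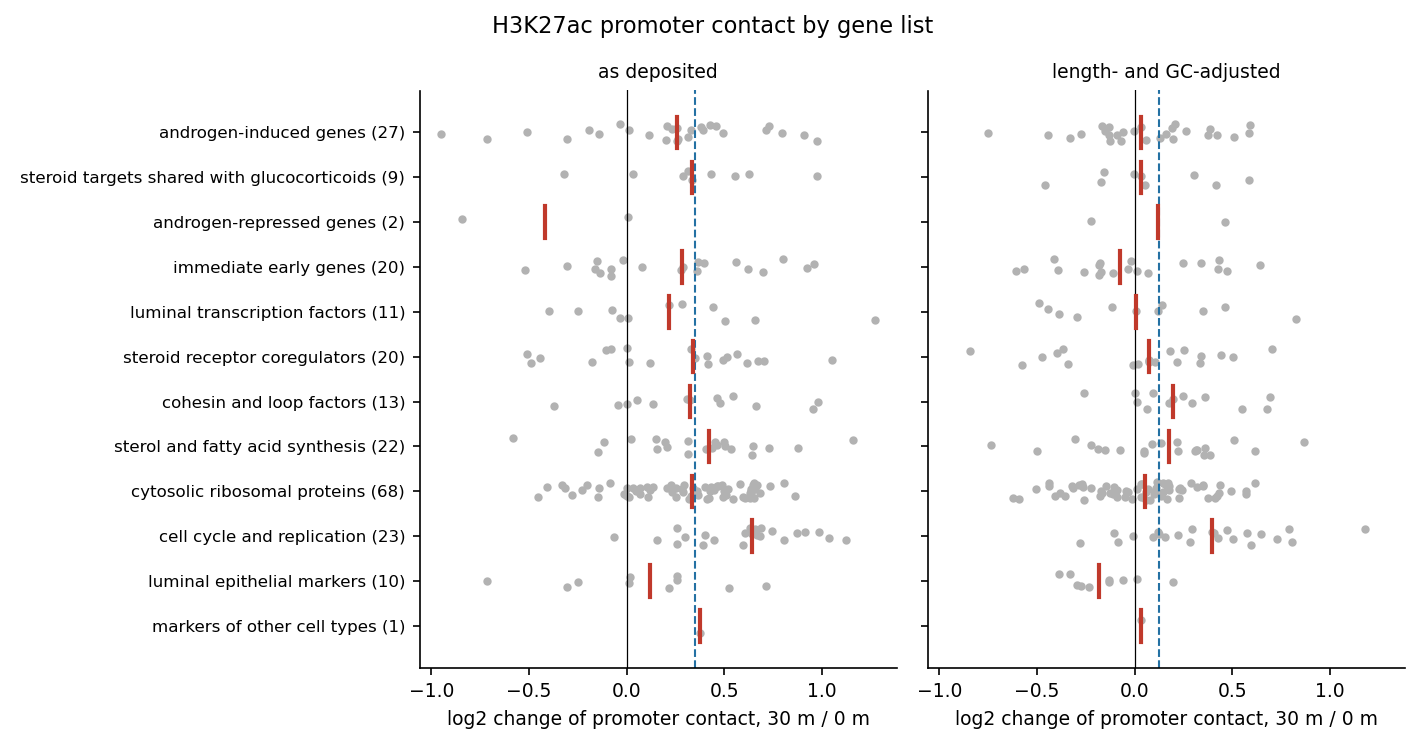
Log2 change of summed promoter contact from 0 m to 30 m for the members of 12 gene lists, with the number of genes with enough read pairs, as deposited (left) and length- and GC-adjusted (right). Grey points are genes, red bars list medians and the dashed line the median of all 8261 genes (0.35 and 0.13); the androgen-induced genes had medians of 0.26 and 0.04 and the cell cycle genes of 0.64 and 0.39.

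As deposited, the 10 largest rises and 10 largest falls among called genes lay outside these lists, apart from AMIGO3. AMIGO3 is among the promoters listed for 4 h. CTSD rose from 10.3 (35 read pairs) to 30.8 (171 read pairs), a change of 1.58 (1.05 to 2.15; adjusted 1.06), over 2 loops of 60.8% GC. ULK1, the kinase that starts autophagy, rose from 12.3 to 32.4 by 1.39 (0.90 to 1.91; adjusted 0.87) in 1 loop. FAM83D, a protein of the mitotic spindle, rose by 1.39 (adjusted 0.997), AMIGO3, a cell adhesion protein, by 1.38 (adjusted 0.85) and CENPJ, which builds centrioles, by 1.37 (adjusted 1.34). EPHA2, a receptor tyrosine kinase, rose by 1.36 (adjusted 0.98). DAGLB, a diacylglycerol lipase, and KDELR2, which returns proteins to the endoplasmic reticulum, share their 29 loops and rose from 46.1 (157 read pairs) to 118 (658 read pairs), a change of 1.36 (1.11 to 1.62; adjusted 1.04). YWHAZ, a 14-3-3 protein, rose by 1.34 (adjusted 0.82), LGALS3, which encodes galectin-3, by 1.33 (adjusted 0.88) and ATP5F1B, a subunit of ATP synthase, by 1.31 (adjusted 1.31). All 10 promoters thus stayed above 1.5-fold after adjustment, but the ranking changed. Ranked by adjusted change, PLPP3 and PRKAA2, which share their loops, and ZBTB41 came first, each at 1.44. CCNB2 of the cell cycle list (1.18) was then among the first 10, and CTSD and ULK1 were not. CTSD had 10.7 at 4 h and 55.0 at 16 h, so the value at 4 h was back at that of 0 m.

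As deposited, BCHE had the largest fall, from 105 (357 read pairs) to 23.8 (132 read pairs), a change of −2.14 (−2.44 to −1.85) and of −0.85 adjusted. Its 48 loops had 34.5% GC, and 81.8% of their 0 m read pairs lay in loops of 100 kb or more. MMP16, a membrane-bound matrix metalloproteinase, fell from 58.5 to 17.1, a change of −1.77 (adjusted −0.48), with 99.5% of its 0 m read pairs in such loops. NIPSNAP3B and its neighbour NIPSNAP3A fell by 1.76 and 1.44 on the log2 scale (adjusted −1.44 and −1.07). TFPI, the tissue factor pathway inhibitor, had −1.73 (adjusted −0.78), MID1, a ubiquitin ligase of microtubules, −1.57 (adjusted −0.83) and the olfactory receptor gene OR51D1 −1.46 (adjusted −1.16). CDH26, a cadherin, had −1.40 (adjusted −1.29), AP1AR, an adaptor of membrane traffic, −1.38 (adjusted −1.35) and TCIM −1.32 (adjusted −0.76). For CDH26 and AP1AR the adjusted value stayed within the counting interval, and for NIPSNAP3B (−2.05 to −1.48) it came out just above it, while for BCHE and MMP16 most of the fall went with length and GC content. Ranked by adjusted change, ANKRD63 (−1.76) and NIPSNAP3B (−1.44) had the largest falls, and BCHE was not among the first 10. At 4 h BCHE had 82.7 and at 16 h 47.6, so its lowest value was at 30 m.

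Taken over all lengths and GC classes, loops with promoters gained contact and loops without lost it. A promoter anchor lies within 2.5 kb of a protein-coding start, and other anchors are called distal. The 18333 promoter-promoter loops (6.19%) rose from a mean contact of 2.39 to 3.34, a change of 0.48 (0.47 to 0.49; adjusted 0.16). The 97932 promoter-distal loops (33.0%) rose from 1.89 to 2.28, a change of 0.27 (0.27 to 0.27; adjusted 0.09). The 180061 distal-distal loops (60.8%) fell from 1.98 to 1.84, a change of −0.10 (−0.10 to −0.10; adjusted −0.07). For loops of at least 20 kb the promoter-distal change was 0.14 and the distal-distal change −0.32. With at least 10 read pairs these changes were 0.32 and −0.015. The order of the anchor classes was the same in each of the 9 length classes and each of 5 GC classes. The sign was not: distal-distal loops rose at 5 kb (0.15) and in the 3 highest GC classes (0.03, 0.21 and 0.29), and promoter-distal loops fell from 500 kb to under 1 Mb (−0.07), at 1 Mb or more (−0.23) and in the 2 lowest GC classes (−0.29 and −0.01). When the libraries were scaled by the median ratio of loops with at least 20 read pairs, the rises of 0.15 and 0.03 turned to falls. So did that of promoter-distal loops in the middle GC class (0.18). The step from distal-distal to promoter-promoter was 0.58, and 0.24 after adjustment. Within the middle GC class the promoter-promoter loops changed by 0.34, the promoter-distal loops by 0.18 and the distal-distal loops by 0.03, a choice made after seeing the data. The share of read pairs with a promoter anchor was 39.2% in the 0 m library and 46.1% in that of 30 m, and 38.1%, 41.7% and 42.6% after 4 h, 16 h and 72 h. Promoter-promoter loops changed by 0.06, 0.47 and 0.41 from the same 0 m library at these 3 later times, and distal-distal loops by 0.10, 0.23 and 0.11. As deposited, the gain of promoter-promoter loops at 16 h and 72 h was thus close to that at 30 m, while distal-distal loops fell at 30 m and rose later. Over all loops the change was 0.08 at 30 m and 0.07, 0.29 and 0.19 at the later times. Relative to all loops, the gain of promoter-promoter loops was thus larger at 30 m than at 16 h and 72 h.

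**Figure D3:**
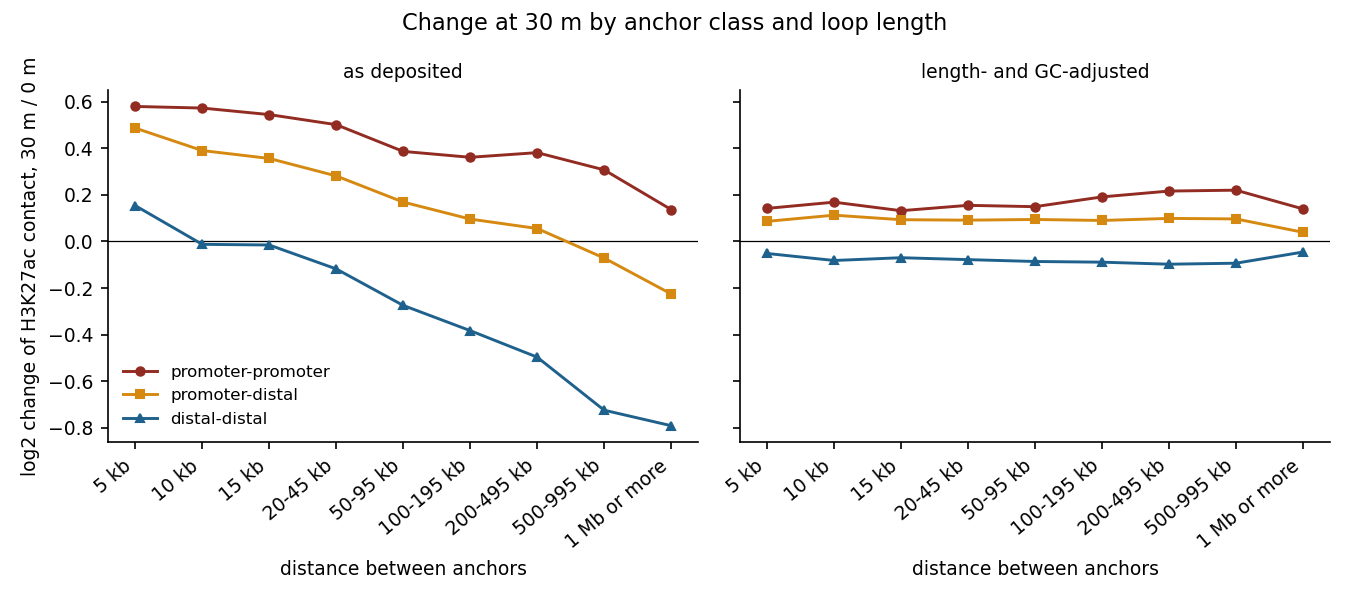
Log2 change of summed H3K27ac contact from 0 m to 30 m against the distance between anchors, for promoter-promoter, promoter-distal and distal-distal loops, as deposited (left) and length- and GC-adjusted (right). Promoter-promoter loops lay above promoter-distal and these above distal-distal loops at all 9 lengths on both sides.

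The change turned from a rise to a fall with distance. Over all H3K27ac loops contact changed by 0.08 (0.07 to 0.08), a value that depended on the scaling, at −0.11 when the libraries were scaled by the median ratio of loops with at least 20 read pairs. Loops of 5 kb rose by 0.28, those of 10 kb by 0.17, those of 15 kb by 0.16 and those of 20 to 45 kb by 0.08, and all of these but the 5 kb loops turned to a fall with the median ratio scaling. Loops of 50 to 95 kb changed by −0.04, those from 100 kb to under 200 kb by −0.13, those from there to under 500 kb by −0.20 and those from 500 kb to under 1 Mb by −0.37. The 5764 loops of 1 Mb or more fell most, from a mean contact of 0.608 to 0.435, a change of −0.48 (−0.52 to −0.45), but among loops with at least 10 read pairs those from 500 kb to under 1 Mb fell more, at −0.38 beside −0.35. The fall was largest for long distal-distal loops, which had −0.72 from 500 kb to under 1 Mb and −0.79 at 1 Mb or more. Promoter-promoter loops had 0.31 and 0.14 at these lengths, the second value turning to a fall with the median ratio scaling. At 4 h, against the same 0 m library, the change also went from 0.27 at 5 kb to −0.24 at 1 Mb or more. Between these lengths it went from 0.72 to −0.10 at 16 h and from 0.53 to −0.12 at 72 h.

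**Figure D4:**
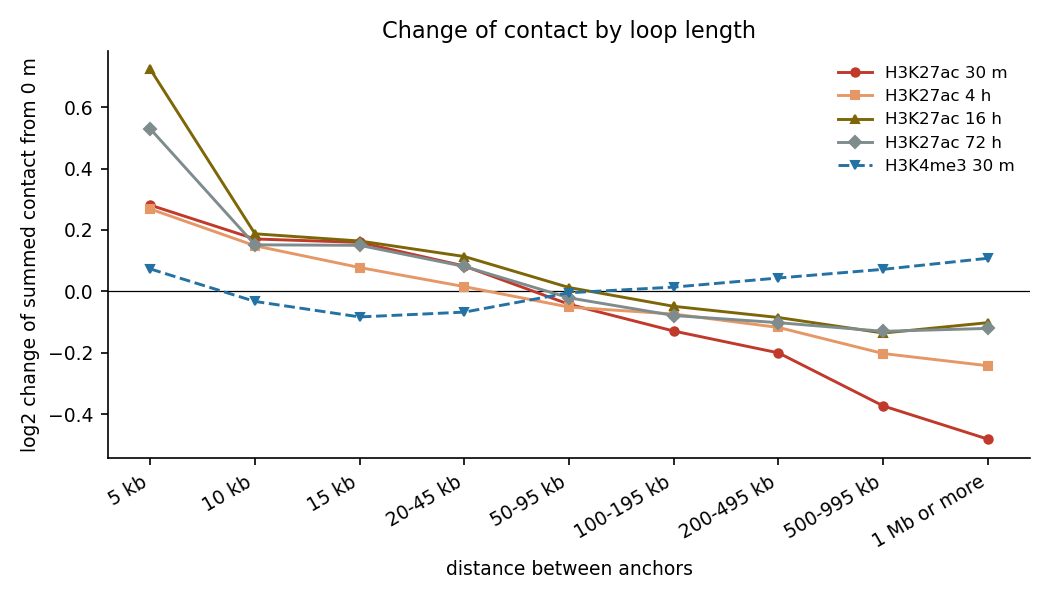
Log2 change of summed contact from 0 m against the distance between anchors, for H3K27ac at each time in DHT (same 0 m library) and for H3K4me3 at 30 m (its own 0 m library). H3K27ac at 30 m fell from 0.28 at 5 kb to −0.48 at 1 Mb or more, whereas H3K4me3 had 0.07 and 0.11.

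The change spanned 1.005 between the lowest and highest GC classes, beside 0.76 between the shortest and longest loops. In 5 classes of equal size by the GC content of both bins, loops at a median GC of 37.7% fell by 0.60 on the log2 scale, from a mean contact of 1.85 to 1.22. At a median GC of 41.4% the change was −0.15, at 44.4% it was 0.10 (below 0 with the median ratio scaling), at 47.9% it was 0.28 and at 53.4% it was 0.40. For loops of 100 kb or more the span was wider, from −1.08 in the lowest class to 0.26 in the highest. Over all lengths the lowest and highest classes had −0.02 and 0.15 at 4 h, 0.01 and 0.34 at 16 h, and −0.13 and 0.23 by 72 h. For loops of 100 kb or more they had −0.24 and −0.03, −0.58 and 0.13, and −0.68 and 0.10. The lowest class thus fell most at 30 m, and among long loops it also fell at the 3 later times. Chromosome 19, which is rich in genes and GC, rose by 0.51 (adjusted 0.14), and chromosome 13, poor in both, fell by 0.24 on the log2 scale (adjusted −0.10).

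**Figure D5:**
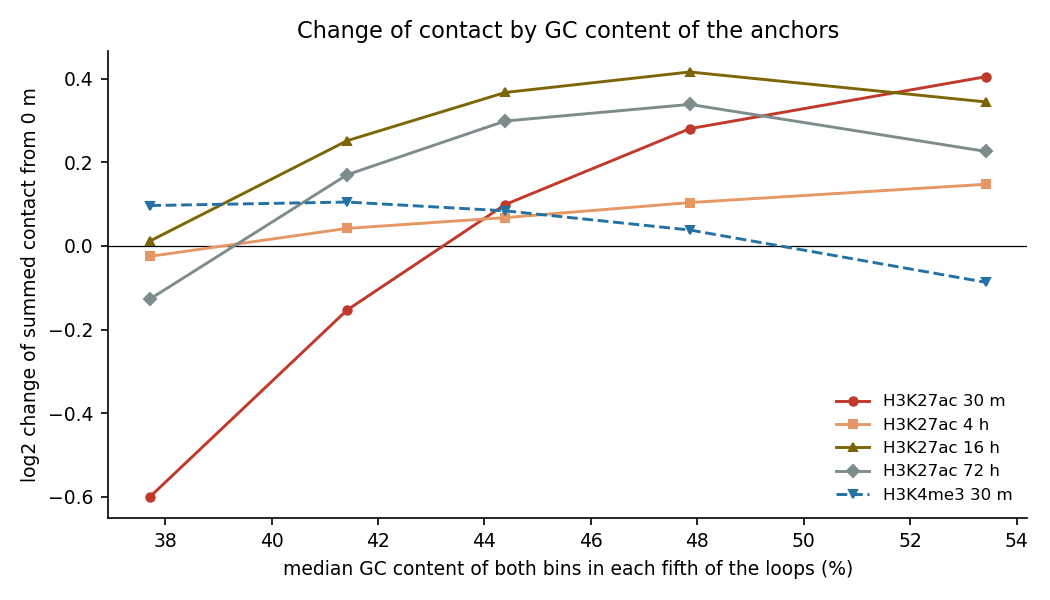
Log2 change of summed contact from 0 m against the median GC content of both bins in 5 classes of equal size, for H3K27ac at each time in DHT (same 0 m library) and for H3K4me3 at 30 m. H3K27ac at 30 m rose from −0.60 to 0.40 over the classes, and H3K4me3 went from 0.10 to −0.09.

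Loops sorted by the motif of FOXA1 or of AP-1 differed little once length and GC content were adjusted for. The first sorting was by whether neither, 1 or both bins held the forkhead motif TGTTTAC on either strand, which 53.7% of bins did. The change was 0.24 with no match, 0.08 with 1 and −0.07 with 2, at a median GC of 47.6%, 44.5% and 42.3%, and after adjustment 0.02, −0.00 and −0.02. The AP-1 motif TGANTCA, where N is any base, was in 78.5% of bins. The change was 0.22 with no match, 0.14 with 1 and 0.02 with 2, at a median GC of 47.4%, 45.4% and 43.7%, and after adjustment 0.03, 0.02 and −0.01.

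Single loops could gain or lose several-fold. Of 62464 loops with at least 20 read pairs in both libraries together, 4096 (6.56%) were called higher and 3008 (4.82%) lower at 2-fold, or 3097 and 3444 with equal library totals. After adjustment 2055 (3.29%) were higher and 2364 (3.78%) lower, so the excess of higher loops was gone at this minimum of read pairs. A promoter anchor was present in 61.7% of the loops called higher, 13.7% of those called lower and 42.0% of all 62464, and their median GC was 49.2%, 39.1% and 45.8%. After adjustment a promoter anchor was present in 53.3% of the higher and 23.9% of the lower loops, so the contrast in promoters was smaller. The median GC was 44.8% and 44.7%, but the adjustment evens out GC by construction.

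Among loops with at least 50 read pairs, the largest rise joined chr7:38692001-38693000 and chr7:38697001-38698000, between genes with AMPH the nearest, from 1.18 (4 read pairs) to 8.28 (46 read pairs). Next came a loop from an intron to an exon of PGD, an enzyme of the pentose phosphate pathway, from 1.47 (5 read pairs) to 9.54 (53 read pairs). A loop within the promoter of FN3KRP, a protein-repair kinase, at chr17:80672001-80673000 and chr17:80677001-80678000 rose from 2.64 (9 read pairs) to 16.4 (91 read pairs), a change of 2.63 (1.64 to 3.80; adjusted 2.12). Promoter-promoter loops among the 10 largest rises joined CPSF1 with TONSL, SFN with GPN2, ZNF511 with ECHS1, and PERM1 with HES4 and ISG15. SFN encodes 14-3-3 sigma and ISG15 an interferon-induced ubiquitin-like protein. The SFN loop had 1.47 (5 read pairs) and 8.46 (47 read pairs), and the one between PERM1 and HES4 with ISG15 had 2.06 (7 read pairs) and 10.3 (57 read pairs). The other 3 of the 10 lay near CLPB, at TEDC1 and within BICRA. The rises thus started from few read pairs at 0 m. After adjustment they lay between 1.89 and 2.54 on the log2 scale.

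The 10 largest falls had no promoter anchor and lay in DNA of 32.3% to 37.3% GC. The first joined chr12:90342001-90343000 and chr12:90357001-90358000, 239 and 254 kb from the nearest start, that of the calcium pump gene ATP2B1. It fell from 25.6 (87 read pairs) to 2.52 (14 read pairs), a change of −3.34 (−4.27 to −2.52; adjusted −2.80), and had 61 read pairs at 4 h and 49 at 16 h. Both other loops among 3 anchors at this place, which share anchors with it, were among the 10, at −2.90 and −2.49 (adjusted −1.96 and −1.27). Further falls lay near CDH9, a cadherin gene, at −3.00 and −2.47 (adjusted −1.79 and −1.47), near TNFRSF11B, which encodes osteoprotegerin, at −2.71 (adjusted −1.97), and within NCAM2, a neural adhesion gene, at −2.67 (adjusted −1.37). Loops within MIPOL1 (−2.47; adjusted −1.25), CNBD1 (−2.42; adjusted −1.12) and GALNT3 (−2.41; adjusted −1.67) completed the set. All 10 falls were thus smaller after adjustment and still past 2-fold. Each of the 10 loops thus lost contact at distal anchors, and each had 2 or fewer H3K4me3 read pairs at 0 m and at 30 m.

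Loops that appeared were more frequent than loops that disappeared at the depth of the libraries. Of all 296326, 16546 (5.58%; exact interval 5.50 to 5.67) had a read pair at 30 m and none at 0 m, and 8202 (2.77%; 2.71 to 2.83) the reverse. The 30 m library was the deeper one, and thinning it to the total of 0 m, by computation, gave 4.98% and 8.92%, which turned the order. Of loops with none at 0 m, 349 had at least 10 read pairs at 30 m and the highest had 25, at a median GC of 49.3%.

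The H3K4me3 libraries at 30 m and 0 m share no library with the H3K27ac ones. H3K4me3 marks active promoters, and its change over the same loops was 0.01, beside 0.08 for H3K27ac. By GC class H3K4me3 had 0.10, 0.11, 0.08, 0.04 and −0.09 from the lowest to the highest, so its lowest value was in the class where H3K27ac rose most. By anchor class it was −0.12 for distal-distal, 0.06 for promoter-distal and 0.03 for promoter-promoter loops. Among 7485 genes with enough read pairs for both marks, 67 (0.895%) were higher and 46 (0.615%) lower in H3K4me3. In H3K27ac 1946 of these genes (26.0%) were higher and 84 (1.12%) lower. In both marks 16 genes were higher, 0.822% of those higher in H3K27ac and 23.9% of those higher in H3K4me3, and 0 were lower. The shares multiplied would give 17.4 and 0.52 genes, so the overlap was no larger than that. Over these 7485 genes the changes of both marks had a Spearman correlation of −0.03, and of 0.18 after adjustment, with genes that share loops and base composition and are not replicates. The change of promoter contact had a Spearman correlation with GC content of 0.37 for H3K27ac and −0.47 for H3K4me3. The 68822 loops that both loop sets hold (23.2%) rose by 0.28 in H3K27ac (adjusted 0.08), and those of the H3K27ac set alone changed by −0.02 (adjusted −0.04).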

How the data were processed

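H3K27ac HiChIP tables of LNCaP at 0 m and 30 m of DHT were analysed, with the 4 h, 16 h and 72 h tables and the H3K4me3 tables set beside them. The authors trimmed reads with Trim Galore 0.5.0, mapped them to hg19 with HiC-Pro 3.1.0 and Bowtie2, and called loops in 5 kb bins with FitHiChIP on the reads of all time points of a mark together. The deposited unit is a signal, the contact of a loop after TMM scaling by the authors among the 5 time points of the mark. Each value was divided by the smallest non-zero value of its table, which gave whole read pairs for 100% of values within 0.01. Rows were matched by anchor pair and taken from the first run of chromosomes. Promoters came from Gencode release 44 lifted to GRCh37, with genes of the same symbol told apart by identifier and the symbol kept for the gene that is not a readthrough. The start of a gene is its most upstream end there, so anchors at its other starts can count as distal. GC content and motifs came from the GRCh37 sequence. The adjustment used 9 length classes, each with 20 classes of GC content. With 1 value per group no test was possible, so calls used a fold and the exact conditional binomial interval. The calls were checked on simulated read pairs that held counting error alone. A base composition effect, where added, followed the same GC classes as the adjustment. The check therefore says nothing on the spread between libraries or cultures. Python 3.11.15, numpy 2.4.6, pandas 2.3.3, scipy 1.17.1 and matplotlib 3.10.9 were used.

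The genes named were all list members with at least 100 read pairs, the 10 largest rises and 10 largest falls among called genes as deposited, and the same for loops with at least 50 read pairs. The first genes by adjusted change were also named. Some list members, sites and motifs are not reported here, though list counts and medians include all members. The members and lists were chosen with earlier results of these data known. Results were recomputed under other choices of scaling, filter and adjustment, 3 of them chosen after seeing the data.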

Additional observations from a re-analysis of the deposited data

How the results depend on the processing

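No paired analysis was possible because the tables hold 1 value per time point and do not separate the replicates that the labels number. Scaling to equal totals moved every log2 change by −0.08, and scaling by the median ratio of loops with at least 20 read pairs by −0.19. The change over all loops was 0.08, and it was −0.077 for loops of at least 20 kb, 0.15 for loops with at least 10 read pairs and −0.11 with the median ratio scaling. With at least 10 read pairs the difference between 5 kb and 1 Mb loops went from 0.76 to 0.63 and loops of 50 to 95 kb from −0.04 to 0.017. The promoter-promoter minus distal-distal difference of 0.58 became 0.62 length-adjusted, 0.24 length- and GC-adjusted, 0.73 at 20 kb or more, 0.60 with whole bins as anchors and 0.52 with at least 10 read pairs. The GC difference of 1.005 was 1.02 length-adjusted.

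In the middle GC class alone, a choice made after seeing the data, the length difference was 0.60, the anchor class difference 0.31, distal-distal loops were at 0.030, and 356 genes were higher and 54 lower among 1738. Genes called higher, 2053 as deposited, were 688 length- and GC-adjusted, 1208 at 20 kb or more and 249 at 2-fold, and those called lower, 157, were 258 with at least 50 read pairs, 69 with at least 200 and 33 at 2-fold. Of calls on genes, 92.9% were higher as deposited and 74.5% after the adjustment. Loops called higher, 4096, were 2055 adjusted, 1897 with at least 50 read pairs and 1486 at 3-fold, and those called lower, 3008, were 569 and 1194 in the last 2 settings. Of calls on loops, 57.7% were higher as deposited, 47.3% with equal totals, 43.2% length-adjusted, 46.5% length- and GC-adjusted, 55.4% at 3-fold and 76.9% with at least 50 read pairs. Loops with read pairs at 30 m and none at 0 m went from 5.58% to 4.98% thinned and 3.82% at 3 read pairs. Stricter minimums keep fewer loops or genes by construction, and otherwise the cause was not tested.

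Of 232 list members and genes of largest change, 107 moved beyond their counting interval with length and GC adjusted, 9 with length adjusted and 0 with equal totals. Counting error limits single loops, most of which hold few read pairs, and the spread between cultures is unknown here.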
